A study of Mus musculus with 6 samples.

Results

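The 8 genes described here are 7 aquaporins, Aqp1, Aqp3, Aqp4, Aqp5, Aqp7, Aqp8 and Aqp11, and the transporter Slc4a11. They are 8 of the 54532 mouse genes listed in the deposited expression table and were found there by Ensembl ID through the GENCODE M21 annotation. The set was selected on the same AdCre and AdGFP values that are given below, so the differences between the groups in these genes are a description and carry no test.

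RNA-seq was performed on primary cardiomyocytes isolated from 1- to 3-day-old mice with a Cre-inducible Rit1 M90I allele, an engineered locus at which Cre recombinase switches on a pathogenic variant of the RAS-related GTPase RIT1. Cells were infected on day 3 after isolation with adenovirus encoding GFP (AdGFP, control, labelled Rit1 +/+) or GFP together with Cre (AdCre, labelled Rit1 M90I/+), and RNA was collected on day 6 after infection. Each group held 3 samples, labelled as biological replicates 1 to 3, and about 1 heart was plated per well. All cells carried the engineered locus and received a virus, and wild-type cells with AdCre were not analysed here, so the action of Cre and that of the variant cannot be told apart.

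Aquaporins are membrane channels that let water cross cells along an osmotic gradient. The aquaglyceroporins, among them Aqp3 and Aqp7, also pass glycerol, and Aqp11 is a distant relative found inside cells. Aqp1 is the abundant water channel of the endothelium and of red blood cells, Aqp4 is the water channel that dystrophin-associated proteins anchor in muscle and glia, and Aqp5 serves the apical membrane of glands and lung. Slc4a11 belongs by sequence to the bicarbonate transporters, moves protons, ammonia and water in the corneal endothelium, and is mutated in inherited corneal dystrophy.

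The genes lie on 6 chromosomes of the GRCm38 (mm10) mouse genome. Aqp3 (ENSMUSG00000028435) spans 4:41092722-41098183 on the minus strand, and Aqp7 (ENSMUSG00000028427) spans 4:41033074-41048139, also on the minus strand, 44582 bases away. Aqp1 (ENSMUSG00000004655) spans 6:55336432-55348555 on the plus strand, and Aqp5 (ENSMUSG00000044217) spans 15:99590782-99594829 on the plus strand, between Aqp2 and Aqp6. Aqp8 (ENSMUSG00000030762, plus strand, 7:123462291-123468004) and Aqp11 (ENSMUSG00000042797, minus strand, 7:97724006-97738289) are on chromosome 7. Slc4a11 (ENSMUSG00000074796) spans 2:130684113-130697519 on the minus strand. No exon of the 8 genes overlapped an exon of another gene, and at most 2.93% of the 50-base words of their transcripts, in Aqp7, occurred in transcripts of other genes.

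Upstream sequences are shown for 3 genes, the member with the largest difference between the groups (Aqp3), the most abundant member (Aqp1) and a member whose groups had nearly equal means (Aqp8). Each is the 250 bases before the RefSeq transcription start in the GRCm38.p6 assembly, written 5′ to 3′ along the gene, at chr4:41098184-41098433 (minus strand), chr6:55336049-55336298 (plus strand) and chr7:123462044-123462293 (plus strand). Capitals mark matches, on either strand, to a TATA box, a GC box or an E-box.
Aqp3: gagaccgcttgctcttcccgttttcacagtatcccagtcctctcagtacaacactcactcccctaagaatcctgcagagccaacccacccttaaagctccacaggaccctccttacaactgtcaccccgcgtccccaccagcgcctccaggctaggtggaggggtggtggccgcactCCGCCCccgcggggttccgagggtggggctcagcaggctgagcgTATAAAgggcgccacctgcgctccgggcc
Aqp1: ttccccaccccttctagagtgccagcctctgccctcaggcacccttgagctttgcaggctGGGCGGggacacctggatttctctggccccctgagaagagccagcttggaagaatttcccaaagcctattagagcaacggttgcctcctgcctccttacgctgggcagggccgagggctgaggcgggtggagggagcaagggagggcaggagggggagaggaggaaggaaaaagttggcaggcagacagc
Aqp8: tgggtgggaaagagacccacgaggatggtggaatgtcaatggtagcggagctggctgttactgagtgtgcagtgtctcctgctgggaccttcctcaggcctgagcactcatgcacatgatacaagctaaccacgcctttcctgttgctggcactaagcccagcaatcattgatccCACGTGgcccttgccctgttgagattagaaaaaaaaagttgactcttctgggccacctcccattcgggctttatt
The Aqp3 window held a TATA box that began 29 bases before the start and a GC box 73 bases before it, and 64.0% of its bases were G or C. The Aqp1 window held a GC box 190 bases before the start, and the Aqp8 window held an E-box 75 bases before it. Over 32536 mouse windows of the same length, searched on both strands, 12.3% held the TATA box letters TATAAA, 33.0% held the GC box letters GGGCGG and 6.04% held the E-box letters CACGTG. The AP-1 motif TGANTCA, bound by FOS and JUN proteins and present in 6.73% of all windows, and the ETS core CCGGAA, present in 12.1%, had no match in these 3 windows. RefSeq windows were given for 6 of the 8 genes, and none was given for Aqp4 or Slc4a11.

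Expression was deposited as FPKM, a level per kilobase of exon corrected for library depth, which allows levels of different genes to be set side by side. Reads worked back from these values came to between 25.28 and 26.55 M (megareads) in AdGFP samples and between 25.98 and 32.43 M in AdCre samples. All 10 cardiomyocyte markers were above the level needed for testing. Rit1 itself had 8.55 ± 0.774 FPKM (SD, n = 3) in AdGFP and 9.19 ± 0.351 FPKM in AdCre (limma adjusted p = 0.84), a gene total in which M90I and wild-type transcripts are added together.

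The cultures had 1 dominant aquaporin transcript, Aqp1, in both groups, while the order of the others differed between the groups. Of the 8 genes, Aqp1, Aqp3, Aqp5 and Slc4a11, had higher values in every AdCre sample than in any AdGFP sample. Aqp4 was lower in AdCre within each replicate number, although the groups overlapped. Aqp8 showed no common direction, and Aqp7 and Aqp11 were below 0.5 FPKM in mean level and not tested.

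**Figure D1:**
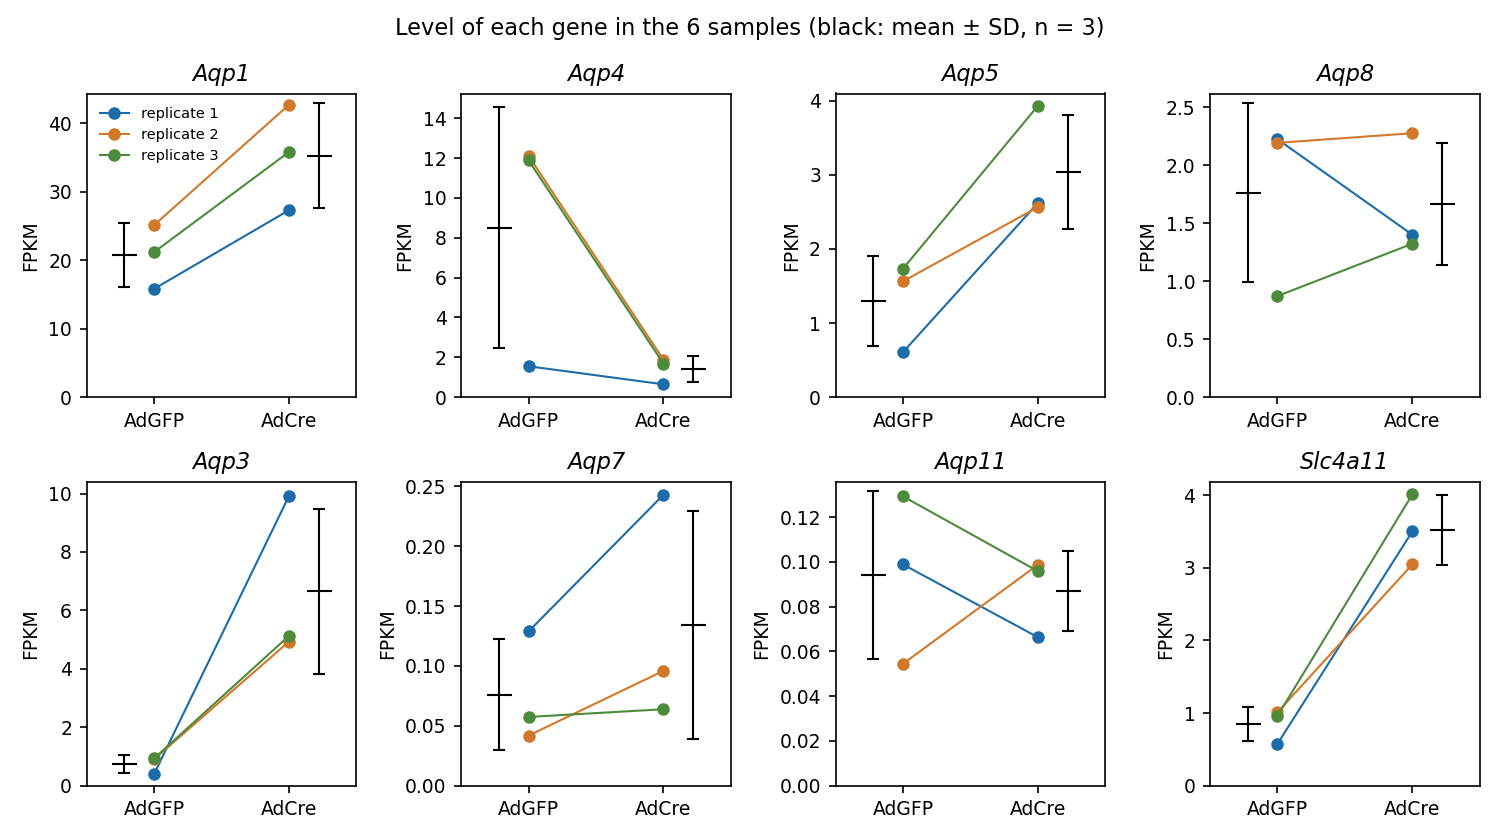
FPKM (vertical axes, each from 0) of the 8 genes in the AdGFP and AdCre samples, with a line joining samples of the same replicate number and black bars for mean ± SD (n = 3). Aqp1, Aqp3, Aqp5 and Slc4a11 have all 3 AdCre points above all 3 AdGFP points, and Aqp4 falls along each line but has a low AdGFP point in replicate 1.

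Aqp1, the water channel of the endothelium, was at 15.8, 25.1 and 21.2 FPKM in AdGFP 1, 2 and 3 and at 27.3, 42.7 and 35.8 FPKM in AdCre 1, 2 and 3. The groups did not overlap, and in both of them replicate 1 was the lowest and replicate 2 the highest. The level went from 20.7 ± 4.67 FPKM (SD, n = 3) to 35.3 ± 7.72 FPKM, a difference of 0.77 ± 0.23 (SE) on the log2(FPKM + 0.1) scale, the scale of all log2 differences below. Within replicate numbers, the AdCre sample had 1.73, 1.70 and 1.69 times the FPKM of its AdGFP counterpart, so that the difference was nearly the same size in all 3. Each value rested on between 1027 and 2898 reads.

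Some endothelial markers had higher values in AdCre, as Aqp1 had, and so had macrophage and epithelial markers (below). The median log2 difference was 0.35 for endothelial, 0.51 for macrophage and 0.73 for epithelial markers. The summed level of the 11 endothelial markers, all of them tested, was between 96.8 and 149.7 FPKM in AdGFP and between 141 and 210.0 FPKM in AdCre, so the sums overlapped between the groups, and 10 of the 11 had a positive log2 difference (all but Vwf). The sum was highest in replicate 3 of each group, and Aqp1 in replicate 2. With the replicate number fitted as a block, limma called 4 of them higher in AdCre at an adjusted p under 0.05 (Flt1, Egfl7, Eng and Cdh5), where 2.64% of all 13794 genes tested were called higher, and without the block 0. Without pair 3 the blocked fit called 1 gene of the whole table, so blocked calls of markers here and below depended on that pair. Red blood cells are the other rich source of Aqp1. Their 7 markers summed to between 0.229 and 0.458 FPKM in AdGFP and between 0.257 and 2.27 FPKM in AdCre. Hba-a2 and Hbb-bt were at 0 in every sample, and Alas2 in AdCre 3, at 2.09 FPKM, made up most of the highest sum. In bulk RNA, a change in the number of cells of a type and a change in RNA per cell cannot be told apart. The part of endothelial or red blood cells in the Aqp1 difference was not tested.

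Aqp4 (ENSMUSG00000024411, minus strand, 18:15389496-15410982), the water channel anchored to the dystrophin complex in muscle, was at 1.55, 12.1 and 11.9 FPKM in AdGFP 1, 2 and 3 and at 0.645, 1.88 and 1.68 FPKM in AdCre 1, 2 and 3. The AdGFP 1 sample stood well below the other AdGFP samples and below 2 of the AdCre samples, so the groups overlapped. Replicate 1 was also the lowest AdCre sample. The mean level was 8.52 ± 6.03 FPKM (SD, n = 3) in AdGFP and 1.40 ± 0.664 FPKM in AdCre, and the fitted difference was -2.17 ± 0.81 (SE) on the log2 scale. Within replicate numbers AdCre was 2.41-, 6.44- and 7.06-fold lower. The SE was 0.32 when the replicate number was fitted as a block, as the spread of Aqp4 lay largely between replicate numbers. Without AdGFP 1 the log2 difference was -3.13, and without AdGFP 2 it was -1.69.

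The cardiomyocyte markers did not all have the order of Aqp4 among the AdGFP samples. The 10 markers summed to 3187 FPKM in AdGFP 1, against 3133 and 2165 FPKM in AdGFP 2 and 3, and to 1949, 2253 and 1207 FPKM in AdCre 1, 2 and 3. In AdGFP 1, the sample with low Aqp4, Tnnt2, Tnni3, Myl2, Myl3 and Myh7 were the highest of the group, while Ryr2 (20.2 FPKM against 32.5 and 26.0 FPKM), Pln (86.2 FPKM against 147 and 111 FPKM) and Mb (159 FPKM against 345 and 227 FPKM) were the lowest. In AdCre 1, Pln was the lowest of the group as well. All 10 had a negative log2 difference, and limma with the block called 6 of them lower in AdCre (Tnnt2, Tnni3, Actn2, Ryr2, Myl2 and Pln), where 3.51% of all genes were called lower, and without the block 0. The summed markers of 3 other cell types, named after all sums were seen, were lowest in replicate 1 of each group, as Aqp4 was. The 7 macrophage markers summed to 49.2 FPKM in AdGFP 1 against 204.7 and 268 FPKM in AdGFP 2 and 3, and to 87.5 FPKM in AdCre 1 against 276 and 335 FPKM. The 8 fibroblast markers summed to 2589 FPKM in AdGFP 1 against 3512 and 4644 FPKM, and to 2272 FPKM in AdCre 1 against 3043 and 3324 FPKM. The endothelial sums (above) were the third. Single markers went against these sums: Cx3cr1, Tcf21, Kdr, Tek, Flt1 and Vwf were not lowest in AdCre 1, and Postn, Kdr, Flt1 and Vwf were not lowest in AdGFP 1. The epithelial, mesothelial and epicardial, adipocyte, red blood cell, and smooth muscle and pericyte sums were not lowest in replicate 1 of either group. All 6 macrophage markers tested had a positive log2 difference, and 7 of the 8 fibroblast markers had a negative one. With the block limma called Lyz2 and C1qb higher, where 2.64% of all genes were called higher. It called Dcn, Lum and Col3a1 lower, against 3.51%, and without the block 0. The part of any of these cell types in the Aqp4 values was not tested.

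Aqp5, the apical water channel of glands and lung, was at 0.607, 1.56 and 1.73 FPKM in AdGFP 1, 2 and 3 and at 2.62, 2.56 and 3.93 FPKM in AdCre 1, 2 and 3. All AdCre values lay above the highest AdGFP value, and AdGFP 1 was again the lowest. The mean level was 1.30 ± 0.607 FPKM (SD, n = 3) in AdGFP and 3.04 ± 0.774 FPKM in AdCre, a log2 difference of 1.25 ± 0.39 (SE). Its size varied between the replicate numbers, at 4.31-, 1.64- and 2.27-fold, and without AdGFP 1 it was 0.82 on the log2 scale. The AdGFP 1 value rested on 39 reads.

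Aqp8, a channel for water and ammonia in the liver and gut, was at 2.23, 2.19 and 0.872 FPKM in AdGFP 1, 2 and 3 and at 1.40, 2.28 and 1.32 FPKM in AdCre 1, 2 and 3. The groups overlapped, and the difference was negative for replicate 1 (-0.63 on the log2 scale), near 0 for replicate 2 (0.05) and positive for replicate 3 (0.55). The fitted log2 difference was -0.01 ± 0.39 (SE), with an SE of 0.25 when the replicate number was fitted as a block. Each value rested on between 34 and 93 reads.

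Aqp3, an aquaglyceroporin of epithelia, was at 0.398, 0.905 and 0.932 FPKM in AdGFP 1, 2 and 3 and at 9.92, 4.93 and 5.13 FPKM in AdCre 1, 2 and 3. The groups were far apart, and replicate 1 held both the lowest AdGFP value and the highest AdCre value. The mean level was 0.745 ± 0.301 FPKM (SD, n = 3) in AdGFP and 6.66 ± 2.82 FPKM in AdCre, a log2 difference of 3.00 ± 0.38 (SE) and the largest in size of the 6 genes tested. AdCre was 24.9-, 5.45- and 5.51-fold higher than AdGFP within replicate numbers 1, 2 and 3. The reads behind the AdGFP values numbered 18, 42 and 42, so counting error was considerable there, and those behind the AdCre values numbered between 233 and 581.

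The keratins Krt8 and Krt18 were the 2 of the 8 epithelial markers, all tested, that limma called with the block, both higher in AdCre. Of all genes, 2.64% were called higher with the block, and without it 0 of the 8 markers were called. The 8 markers summed to between 156 and 183 FPKM in AdGFP and between 305 and 385 FPKM in AdCre, and these keratins carried most of each sum. Krt8 was at 22.4, 47.5 and 75.1 FPKM in AdGFP 1, 2 and 3 and at 101, 109 and 158 FPKM in AdCre 1, 2 and 3, and Krt18 at 156, 85.4 and 80.4 FPKM and at 204, 171 and 191 FPKM. Of the 8 markers, 7 had a positive log2 difference, among them Krt5 (0.19) and Krt14 (0.17), neither called, and Trp63, a marker of basal epithelium, had a negative one (-1.05), also not called. Epcam was at 0.0793, 4.001 and 7.38 FPKM in AdGFP 1, 2 and 3 and at 1.52, 6.04 and 11.9 FPKM in AdCre 1, 2 and 3, and Cdh1 at 0.301, 3.68 and 6.42 FPKM and at 0.874, 5.23 and 8.92 FPKM. Both followed the order of Aqp3 among the AdGFP samples, but were lowest in AdCre 1, where Aqp3 and Krt18 were highest of the AdCre samples. The mesothelial and epicardial markers had 9 tested of 10, with 3 positive and 6 negative log2 differences and a median of -0.38. With the block limma called Aldh1a2 higher (2.64% of all genes) and Tbx18 and Lrrn4 lower (3.51% of all genes), and without it 0. The part of epithelial, mesothelial or epicardial cells in the Aqp3 and Aqp5 differences was not tested.

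The other aquaglyceroporin, Aqp7, which releases glycerol from fat cells, had 9, 3 and 4 reads in AdGFP 1, 2 and 3 and 22, 7 and 5 reads in AdCre 1, 2 and 3. These are levels of 0.0760 ± 0.0464 FPKM (SD, n = 3) and 0.134 ± 0.0955 FPKM, and the groups overlapped. Aqp11, the intracellular aquaporin, had between 13 and 30 reads in AdGFP and between 20 and 25 in AdCre, or 0.0942 ± 0.0376 and 0.0869 ± 0.0179 FPKM. Both genes had a mean over the 6 samples below the 0.5 FPKM needed for testing (0.105 and 0.0905 FPKM), and the lowest member above it was Aqp8, at 1.72 FPKM. Neither gene was tested for that reason, and the summed reads of a group were 16 and 34 for Aqp7 and 66 and 69 for Aqp11.

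Slc4a11 was at 0.575, 1.01 and 0.958 FPKM in AdGFP 1, 2 and 3 and at 3.50, 3.04 and 4.01 FPKM in AdCre 1, 2 and 3. The AdCre samples lay within 1.32-fold of each other, and the lowest AdCre value was well above the highest AdGFP value. The mean level was 0.847 ± 0.238 FPKM (SD, n = 3) in AdGFP and 3.52 ± 0.482 FPKM in AdCre, a log2 difference of 1.96 ± 0.24 (SE). Within replicate numbers AdCre was 6.09-, 3.02- and 4.18-fold higher, with between 71 and 128 reads per AdGFP sample and between 393 and 560 per AdCre sample.

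Counted over the 6 genes that were tested, limma without the replicate block called 0 at an adjusted p under 0.05, as it called 0.00725% of all 13794 genes tested. With the block, which uses the differences within replicate numbers, it called 5, where 6.15% of all genes were called. Of these, 4 were higher in AdCre (Aqp1, Aqp3, Aqp5 and Slc4a11), against 2.64% of all genes, and 1 was lower (Aqp4), against 3.51%. The groups did not overlap for 4 of the 6, all higher in AdCre, against 15.4% of all genes in either direction and 7.36% higher. Since the genes were selected on this contrast, nothing is read from these shares. The blocked count was 5 without replicate pair 1, 1 without pair 2 (Slc4a11) and 0 without pair 3. The same fits called 811 of 13789, 152 of 13786 and 1 of 13794 genes over the whole table.

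**Figure D2:**
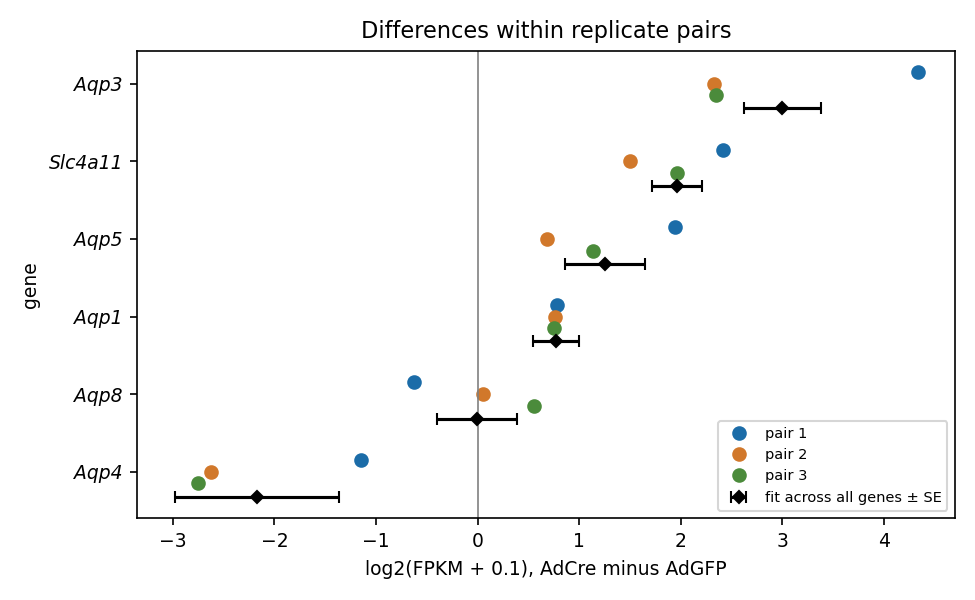
Differences between AdCre and AdGFP in log2(FPKM + 0.1) (horizontal axis) for the 6 genes tested, with colored points for the 3 replicate numbers and black diamonds for the fitted difference ± SE without the block. The 3 Aqp1 points almost coincide, replicate 1 lies farthest right for Aqp3, Slc4a11 and Aqp5, and the Aqp8 points fall on both sides of 0.

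The size of the difference thus varied in different ways among the members. It was nearly constant over replicate numbers for Aqp1, largest in replicate 1 for Aqp3, Slc4a11 and Aqp5, and smallest in replicate 1 for Aqp4. AdGFP 1 had the lowest AdGFP value of all 5.

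The make-up of the aquaporin transcripts followed from these levels. The summed FPKM of all 12 aquaporin genes in the table was 21.2, 42.2 and 36.9 in AdGFP 1, 2 and 3 and 42.4, 54.8 and 48.2 in AdCre 1, 2 and 3. Aqp1 made up between 57.4% and 74.6% of the sum in AdGFP and between 64.5% and 78.0% in AdCre. The Aqp4 share was 7.32%, 28.7% and 32.2% in AdGFP 1, 2 and 3 and 1.52%, 3.44% and 3.49% in AdCre 1, 2 and 3. The Aqp3 share was between 1.88% and 2.53% in AdGFP and between 9.01% and 23.4% in AdCre. Aqp3 was below Aqp5 in every AdGFP sample, with a ratio between 0.538 and 0.656, and above it in every AdCre sample, with a ratio between 1.31 and 3.79.

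**Figure D3:**
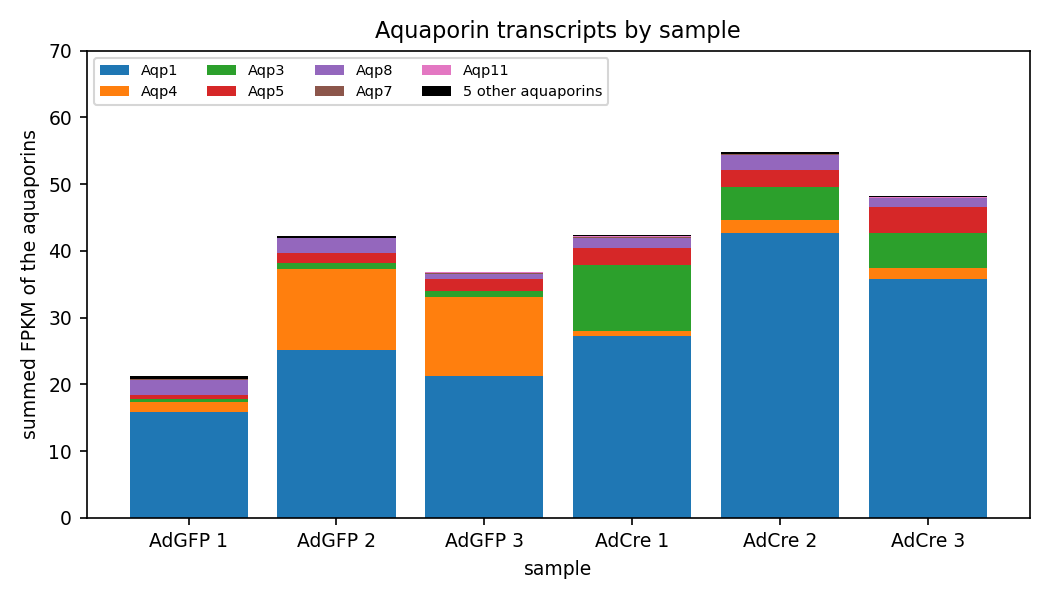
Summed FPKM (vertical axis, from 0) of the aquaporin genes in each sample, stacked by gene. Aqp1 is the largest block in every bar, the Aqp4 block is prominent only in AdGFP 2 and AdGFP 3, and the Aqp3 block is largest in AdCre 1, at 23.4% of the sum.

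In order of mean FPKM, the AdGFP samples had Aqp1, Aqp4, Aqp8, Aqp5, Slc4a11, Aqp3, Aqp11 and Aqp7. Only Aqp1 and Aqp4, and Aqp3 and Aqp11, were neighbors whose 3 values did not overlap. The AdCre samples had Aqp1, Aqp3, Slc4a11, Aqp5, Aqp8, Aqp4, Aqp7 and Aqp11. There the neighbors whose values overlapped were Slc4a11 and Aqp5, Aqp8 and Aqp4, and Aqp7 and Aqp11. Aqp3 stood sixth in one group and second in the other, and Aqp4 second and sixth.

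The other 5 aquaporins of the table added at most 1.80% to the sum. Aqp2, the vasopressin-regulated channel of the kidney, had between 1 and 10 reads in a sample, and Aqp9, a liver aquaglyceroporin, had between 5 and 9. Mip, the lens aquaporin, had 1 read in AdGFP 1 and 0 elsewhere. Aqp6 and Aqp12 had 0 reads in all samples, which allows up to 0.0502 FPKM for Aqp6 and 0.112 FPKM for Aqp12 if a count of 3 is taken as the floor, counting error only.

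The genes whose values over the 6 samples were most like those of a member were found among 12428 protein-coding genes by the correlation of log2(FPKM + 0.1). Since the 6 samples share the 2 groups and the replicate numbers, these are descriptions. For Aqp3 they were Aldh1a3 (r = 0.996, rho = 0.943), an enzyme of retinoic acid synthesis, and Mal (r = 0.994, rho = 0.886), a membrane protein of apical sorting. For Slc4a11 they were Micall2 (r = 0.998, rho = 1.0) and Rnf114 (r = 0.995, rho = 1.0), and for Aqp1 they were the tetraspanin Cd9 (r = 0.988, rho = 1.0) and Plod3 (r = 0.983, rho = 0.943). For Aqp4 they were Trim68 (r = 0.996, rho = 1.0) and Pbx2 (r = 0.993, rho = 0.829), for Aqp5 Tmem19 (r = 0.991, rho = 0.943) and Mcoln3 (r = 0.990, rho = 0.943), and for Aqp8 Snapc1 (r = 0.988, rho = 0.943) and Rarb (r = 0.974, rho = 1.0). Between 10 (Aqp8) and 108 (Aqp4) genes had an r above 0.95 with a member.

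Genes that work with these channels were examined as lists. Without the block, limma called 0 genes of each list at an adjusted p under 0.05, and 8 of the 51 genes tested had an unadjusted p under 0.05, where 1402 of all 13794 (10.2%) had one. With the block limma called 2 of the 51, where 6.15% of all 13794 genes were called. The median log2 difference of all 13794 genes was -0.00.

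The dystrophin complex and the anchors of Aqp4 held 11 tested genes of 12, with a median log2 difference of -0.31, 7 of them negative and 4 positive. With the block limma called 2, both lower in AdCre, where 3.51% of all genes were called lower. Dmd, which encodes dystrophin, went from 4.16 ± 0.195 FPKM (SD, n = 3) in AdGFP to 1.96 ± 0.487 FPKM in AdCre, a log2 difference of -1.07 ± 0.19 (SE, limma adjusted p = 0.175 without and 0.0269 with the block). Dtna, which encodes α-dystrobrevin, went from 2.60 ± 0.371 to 1.54 ± 0.452 FPKM, a log2 difference of -0.75 ± 0.23 (limma adjusted p = 0.358 and 0.0469). With the block and TPM, Dtna was not called (limma adjusted p = 0.0615) and Dmd was (0.0244), and without pair 2 or pair 3 neither was. In AdGFP 1, where Aqp4 was below 2 of the AdCre samples, Dmd at 4.35 and Dtna at 2.27 FPKM were above all AdCre samples. Cardiomyocyte markers were lower in AdCre as well (above), and their part in these differences was not tested.

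The other bicarbonate transporters of the SLC4 family had 4 tested genes of 9, and limma with the block called 0 of them, with a median log2 difference of -0.07. Slc4a4, a sodium bicarbonate cotransporter, was at 2.58 ± 0.651 FPKM (SD, n = 3) in AdGFP and 1.68 ± 0.273 FPKM in AdCre (limma adjusted p = 0.471 without and 0.145 with the block). Slc4a3, an anion exchanger of heart muscle, was at 6.28 ± 1.27 and 4.71 ± 0.596 FPKM (limma adjusted p = 0.536 and 0.103). Both had lower means in AdCre, the opposite direction to Slc4a11, and Slc4a2 and Slc4a7 had higher means.

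The carbonic anhydrases, which supply bicarbonate and protons, had 8 tested genes of 14, with 0 called by limma with the block and a median log2 difference of -0.05. The 2 with the smallest p were Car13, at 5.37 ± 0.677 and 8.64 ± 2.82 FPKM (limma adjusted p = 0.452 without and 0.0577 with the block, and called at 0.0405 with the block and TPM), and Car9, at 13.8 ± 3.78 and 7.98 ± 5.08 FPKM (limma adjusted p = 0.526 and 0.0681). Genes of glycerol use and lipolysis, the partners of the aquaglyceroporins, had 9 tested of 11, with 0 called and a median of -0.12. Glycerol kinase (Gk) was at 7.38 ± 1.32 and 5.04 ± 0.934 FPKM (limma adjusted p = 0.417 and 0.0523), and Abhd5, an activator of fat breakdown, was at 4.72 ± 0.237 and 6.47 ± 0.918 FPKM (limma adjusted p = 0.365 and 0.0669).

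The genes of cell volume control and the osmotic response had 19 tested of 21, with 0 called with the block, 7 positive and 12 negative and a median log2 difference of -0.11. Nfat5, the transcription factor of the osmotic response, was at 8.41 ± 1.49 FPKM (SD, n = 3) in AdGFP and 9.39 ± 0.827 FPKM in AdCre, a log2 difference of 0.17 (limma adjusted p = 0.806 without and 0.373 with the block). The calcium channel Trpv4, which opens on cell swelling, had the largest log2 difference of the list, 1.28 ± 0.48 (SE), from 0.516 ± 0.347 to 1.26 ± 0.384 FPKM (limma adjusted p = 0.438 and 0.161), and the chloride transporter Clcn3 went from 2.70 ± 0.254 to 2.13 ± 0.110 FPKM (limma adjusted p = 0.519 and 0.202). Nfat5 was named after its values were seen.

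**Figure D4:**
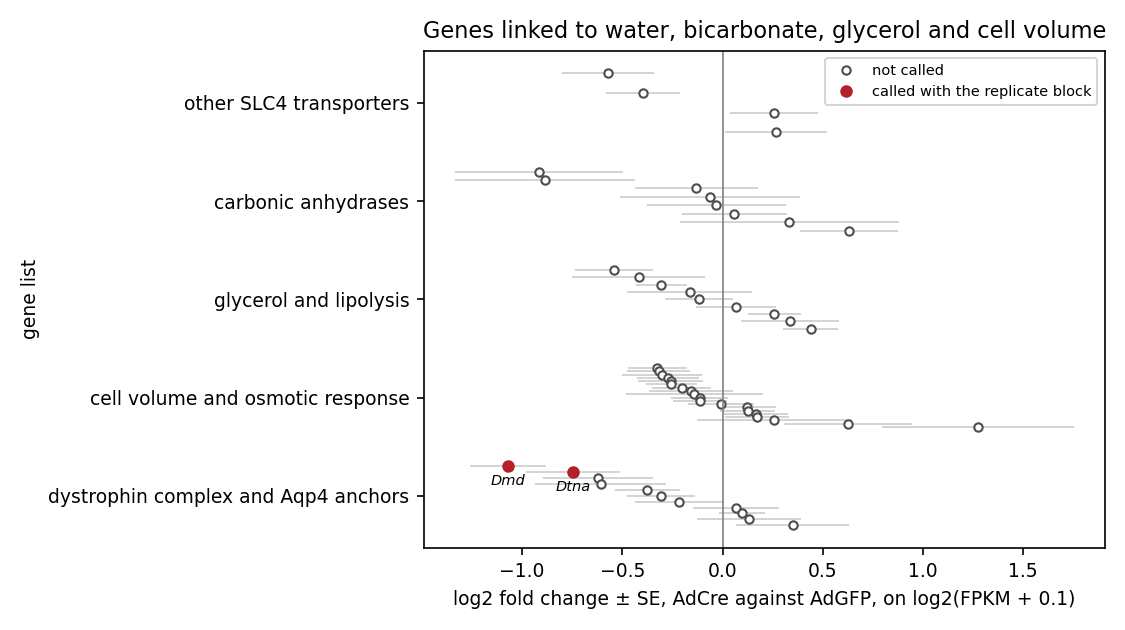
Log2 differences ± SE of log2(FPKM + 0.1), AdCre against AdGFP (horizontal axis), for the tested genes of 5 lists (vertical axis), each point a gene and filled where limma with the replicate block called it. Most points lie within 1 unit of 0, and the 2 filled points, Dmd and Dtna, are at the left in the dystrophin complex.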

How the data were processed

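The authors deposited 1 table of FPKM for 3 AdGFP and 3 AdCre samples. Their processing notes name fastp, STAR 2.5, HTSeq 0.6.1 and mm10, and the annotation and use of strand are not given in the sources used here. Of 54532 Ensembl IDs, 54495 were in GENCODE M21, which gave symbols and exon lengths. FPKM values were whole multiples of 1 read (within 0.02 read, under 1000 reads) for 97.2% to 97.4% of genes, which gave the read numbers. Upstream sequences are from RefSeq. The genes averaging 0.5 FPKM or more over the 6 samples were fitted as log2(FPKM + 0.1) in limma 3.58.1 (R 4.3.3) with an intensity trend and Benjamini-Hochberg adjustment. Fold changes on this scale understate those of low genes. Levels, shares and correlations were computed in Python 3.11.15.

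Deviations from the group means correlated positively between same-numbered samples (r = 0.568, 0.268 and 0.506), and r was between -0.497 and 0.036 for other numbers, which centring on a mean of 3 samples pushes below 0. As all exceeded 0.1, same-numbered samples were treated as pairs, from the values alone. What a number marks is not stated. The p-values measure the spread between these samples or, with the block, the spread of the differences within replicate numbers. Samples of a group differed beyond sampling noise (chi-square per degree of freedom at least 39.2). With 3 samples a group, the smallest two-sided p of an exact permutation test is 0.1.

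Members and gene lists were chosen with earlier results of these data known, and 2 genes of the lists are not reported here. Named genes are the members, the other aquaporins, Rit1, called genes of each list (at most 5) or else the 2 with the smallest p, the 2 genes most like each member, and markers at 0. Epcam, Cdh1, Trp63, other single markers, Slc4a2, Slc4a7, Nfat5 and the called markers were named after their values were seen. Alternatives covered the pseudocount, filter, scaling, trend, voom, the replicate block and each sample left out, and the fit was tested on simulated data.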

Additional observations from a re-analysis of the deposited data

How the results depend on the processing

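The number of genes called over the whole table depended on the pairing. It was 1 of 13794 without the replicate block and 848 with it, 875 with the block and TPM, and 874 with the block and the sum of recovered reads. Without pair 1 or pair 2 the blocked count was 811 or 152, and without pair 3 it was 1. Higher in AdCre were 42.9% of the blocked calls with the deposited scaling, 61.5% with TPM and 54.8% with the sum of reads. Without the block, a pseudocount of 1 gave 3 calls, no intensity trend 4, no filter 0 (2168 at an unadjusted p under 0.05) and limma with voom on recovered reads 0 (1449 at an unadjusted p under 0.05), and leaving out 1 sample gave between 0 and 2. Of the 51 listed genes, 0 were called without the block and 2 with it (Dmd and Dtna, lower). With the block and TPM 2 were called (Dmd lower, Car13 higher, Dtna lost). With the block and the sum of reads 3 were called (Dmd and Dtna lower, Car13 higher). Without pair 1, 2 and 3 the blocked counts were 2 (Dmd and Sgca, lower), 0 and 0, and Dtna was lost in each. The sum of reads and the leaving out of pairs were added after the data were seen. The cause was not tested. Each fit without a pair had fewer samples, the same number for each pair.

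Aqp1, Aqp3, Aqp4, Aqp5 and Slc4a11 kept the sign of their log2 difference in all 21 alternatives. Ranges were 0.59 to 0.94 for Aqp1, 2.09 to 3.34 for Aqp3, -3.13 to -1.69 for Aqp4, 0.82 to 1.54 for Aqp5 and 1.29 to 2.19 for Slc4a11. The lowest Aqp3 and Slc4a11 values came with a pseudocount of 1. Aqp8 ranged from -0.43 to 0.30, with a sign that changed in 11 of 21. Aqp7, Aqp11, the AdGFP values of Aqp3 and the AdGFP 1 value of Aqp5 rest on few reads (3 to 42 per sample), and Aqp8 on 34 to 93.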
